A study of Mus musculus with 2 samples.

Results

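The 5 transcription factor genes described here are Otx2, Gbx2, Irx3, Irx5 and Meis2, chosen by their symbols from the 32285 genes of the count files, and followed in single cells of mouse gastruloids. They were picked because earlier results on these same libraries had shown Otx2 on one side and the other 4 on the opposite side, so their levels, their library ratios and their appearance together in cells are given as descriptions, with no test. A gastruloid is a ball of embryonic stem cells that begins to lay down a body axis in a dish. Aggregates of about 300 cells of the mouse embryonic stem cell line R1, either wild type or lacking both Sp5 and Sp8, were grown in N2B27 without serum, received 3 µM CHIR (which turns on Wnt signalling by blocking GSK3) for 12 hours from day 2, and were collected at day 2.5. Each genotype, WT (wild type) and dKO (double knockout), had 1 library made from pooled aggregates, and the labels do not say whether the double knockout line came from a single clone. Values therefore compare 2 libraries and not 2 genotypes, and every interval is a 95% interval of counting error only.

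Otx2 encodes a homeobox factor of the epiblast that later marks forebrain and midbrain. Gbx2 encodes a homeobox factor of the hindbrain side, and the opposition of Otx2 and Gbx2 sets the midbrain-hindbrain boundary in the embryo. Irx3 and Irx5 are neighbouring Iroquois homeobox genes used in neural and other patterning, and Meis2 encodes a TALE homeobox factor that binds DNA with Pbx and Hox proteins.

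A barcode counted as a cell if it held at least 2500 UMIs (unique molecular identifiers, by which each captured transcript is counted once) and at least 1000 genes, with at most 10% mitochondrial UMIs. This kept 8707 cells with a median of 10571 UMIs in the WT-labelled library and 10587 cells with a median of 8637 UMIs in the dKO-labelled library. Barcodes present in both sets numbered 27. The targeted gene Sp5 went against the label: it stood at 109 CPM (UMIs of the gene scaled to the UMI total of the library's cells, as CPM is usually taken) in the WT-labelled library and at 479 CPM in the dKO-labelled library, and Sp8 at 20.8 and 40.1 CPM. Below, the WT-labelled and dKO-labelled libraries are thus named by their labels only, and a difference between them is not given as an effect of losing Sp5 or Sp8.

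Promoter windows, the 250 bases before an annotated start, were listed by RefSeq (GRCm38.p6) for 4 of the 5 genes, and Irx5 had no entry. The Otx2, Irx3 and Meis2 windows lay inside the spans that the GENCODE M21 annotation gives these genes. All 250 bases of the Gbx2 window, the Irx3 window and the Otx2 window at chr14:48665110-48665359 overlapped an annotated exon of either strand. The windows are shown because these factors bind short DNA words of known type. The words searched on both strands were TAATCC (the type bound by Otx2), TAATTA (a general homeobox core), TGACAG (Meis type), ACANNTGT (Iroquois type) and GGGCGG (the GC box of Sp factors), and none of them overlapped another in these windows. The first Otx2 window listed, chr14:48667645-48667894 on the minus strand, held TAATTA once, in capitals. Its start is the first in the RefSeq list, and the GENCODE M21 span of Otx2 begins further upstream.

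Otx2, 250 bases before the first start: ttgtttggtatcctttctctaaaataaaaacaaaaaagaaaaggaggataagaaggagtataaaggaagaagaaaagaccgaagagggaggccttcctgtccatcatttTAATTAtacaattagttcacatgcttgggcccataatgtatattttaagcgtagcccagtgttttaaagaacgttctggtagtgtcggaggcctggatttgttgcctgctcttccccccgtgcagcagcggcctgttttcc

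Another Otx2 start had a window, chr14:48665110-48665359 on the minus strand, that held TAATTA 3 times and TAATCC once. These 30-base stretches show the sites in capitals, the TAATCC site being read as GGATTA on the strand printed.
Otx2, chr14:48665326-48665355: cacgacggcctgTAATTAagggacgtgtgc
Otx2, chr14:48665303-48665332: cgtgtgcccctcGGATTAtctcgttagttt
Otx2, chr14:48665266-48665295: aaacatttattaTAATTAattctcggacga
Otx2, chr14:48665246-48665275: tctcggacgaggTAATTAttattgagcgag

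The Gbx2 window, chr1:89931177-89931426 on the minus strand, held none of the homeobox words and GGGCGG once, shown in capitals within its 30 bases.
Gbx2, chr1:89931296-89931325: cctgggtgaaggGGGCGGagccctaatttc

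The Irx3 and Meis2 windows and the other 2 Otx2 windows held none of the 5 words. Of 32526 such windows over all genes, 4.84% held TAATTA, 6.25% TAATCC, 15.8% TGACAG, 6.33% ACANNTGT and 33.0% GGGCGG. A match shows only that the letters are present, and no binding was measured here.

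Otx2 was the member with the higher level in the dKO-labelled library, and the other 4 were lower there. Otx2 (ENSMUSG00000021848, chr14:48657677-48673819, minus strand, GENCODE M21 on GRCm38) had 3022 UMIs or 31.1 CPM (30.005 to 32.2) in the WT-labelled library and 5524 UMIs or 56.6 CPM (55.1 to 58.1) in the dKO-labelled library. The log2 ratio of the second over the first was 0.86 (0.80 to 0.93), a 1.82-fold higher level. The antisense gene Otx2os1 overlaps Otx2 and had only 7 UMIs in each library, and whether reads were assigned by strand is not given in the sources used here.

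Gbx2 (ENSMUSG00000034486, chr1:89927956-89931179, minus strand) stood at 24.1 CPM (23.1 to 25.1) and 18.0 CPM (17.2 to 18.9), a log2 ratio of -0.42 (-0.51 to -0.33). This was the smallest of the 5 differences and did not reach 1.5-fold. The transcript D130058E05Rik lies on the opposite strand over Gbx2 and stood at 4.56 and 4.39 CPM, with a log2 ratio of -0.05.

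The Iroquois pair differed most. Irx3 (ENSMUSG00000031734, chr8:91798525-91802067, minus strand) stood at 19.8 CPM (18.9 to 20.7) and 8.17 CPM (7.62 to 8.76), a log2 ratio of -1.27 (-1.39 to -1.15) or a level 2.42-fold higher in the WT-labelled library. Irx5 (ENSMUSG00000031737, chr8:92357625-92376286, plus strand) stood at 17.4 CPM (16.5 to 18.2) and 7.50 CPM (6.96 to 8.06), a log2 ratio of -1.21 (-1.34 to -1.09). The 2 ratios lay within each other's intervals. The antisense gene Irx3os stood at 0.57 and 0.17 CPM, far below Irx3.

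Meis2 (ENSMUSG00000027210, chr2:115863064-116065839, minus strand) was the lowest of the 5, at 10.6 CPM (9.93 to 11.2) and 4.87 CPM (4.45 to 5.33). Its log2 ratio was -1.12 (-1.28 to -0.96), close to those of the Iroquois pair. In descending CPM the order was Otx2, Gbx2, Irx3, Irx5 and Meis2 in both libraries, and only the intervals of Irx3 and Irx5 in the dKO-labelled library overlapped between neighbours. A 3′ UMI stands for 1 captured transcript end whatever the transcript's length, so these levels are not divided by length.

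**Figure D1:**
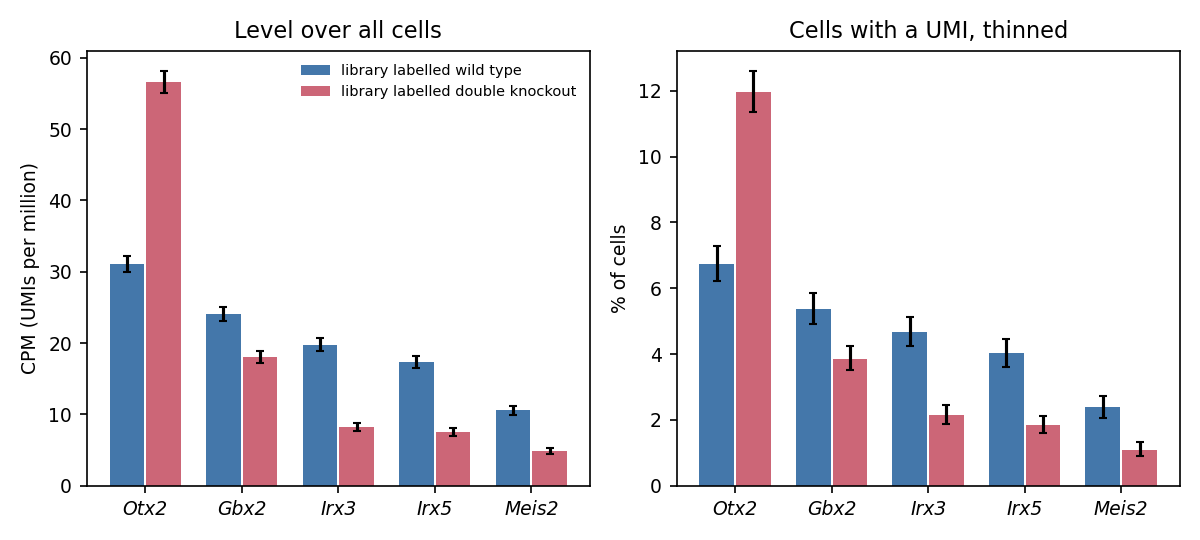
Left, level of each of the 5 genes in CPM over all cells with exact Poisson 95% intervals, 1 bar per library. Right, percent of cells with at least 1 UMI after every cell was thinned to 2500 UMIs, with exact binomial 95% intervals. Otx2 is the gene with the taller bar in the dKO-labelled library.

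Against all genes, 22 of the 7607 with a mean level of at least 10 CPM (0.289%) were at least 1.5-fold higher in the dKO-labelled library, and 18 (0.237%) were at least 1.5-fold lower. Otx2 was among the 22, with 6 genes above it. Irx3 and Irx5 were among the 18, with 2 and 3 genes below them. Meis2 averaged 7.72 CPM and so was not among those 7607 genes. The members were chosen with these ratios known, so nothing is read from these places.

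Set against one another, Otx2 had more UMIs than each of the other 4 genes in both libraries, by a larger factor in the dKO-labelled library. Cells of the WT-labelled library held 1.29 Otx2 UMIs per Gbx2 UMI, 1.57 per Irx3 UMI, 1.79 per Irx5 UMI and 2.94 per Meis2 UMI. These numbers were 3.14, 6.92, 7.55 and 11.6 in the dKO-labelled library. Summed over the other 4 genes, there were 0.433 Otx2 UMIs for each of their UMIs in the first library and 1.47 in the second. Only against that sum did Otx2 go from the smaller to the larger part.

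Shares of cells followed the levels. After each cell was thinned to 2500 UMIs, which puts both libraries at 1 depth, Otx2 was found in 6.75% (6.23 to 7.30) of cells in the WT-labelled library and 12.0% (11.3 to 12.6) in the dKO-labelled library. The shares for Gbx2 were 5.37% and 3.86%, for Irx3 4.67% and 2.14%, for Irx5 4.02% and 1.84%, and for Meis2 2.38% and 1.10%. Without thinning, Otx2 was found in 22.1% and 32.7% of cells, Gbx2 in 18.4% and 12.2%, Irx3 in 15.5% and 6.21%, Irx5 in 14.8% and 6.05%, and Meis2 in 8.12% and 3.61%.

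A cell with a gene usually held 1 UMI of it. Otx2-positive cells averaged 1.57 Otx2 UMIs in the WT-labelled library and 1.597 in the dKO-labelled library, with at most 9 and 8 in a cell. Irx3-positive cells averaged 1.43 and 1.21 Irx3 UMIs, and Irx5-positive cells 1.31 and 1.14. These averages are over all UMIs without thinning, and cells of the dKO-labelled library had fewer UMIs at the median. Over thinned cells, where even spread gives a variance equal to the mean, the variance over the mean was 1.21 and 1.13 for Otx2, 1.15 and 1.15 for Gbx2, 1.14 and 1.15 for Irx3, 1.11 and 1.01 for Irx5, and 1.31 and 1.12 for Meis2. Meis2 in the WT-labelled library was thus the most unevenly spread of these 10 values.

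Free RNA held all 5 genes. In barcodes of 10 to 100 UMIs, taken here as free RNA, Otx2 stood at 14.7 and 28.3 CPM, Gbx2 at 14.7 and 9.84, Irx3 at 27.0 and 10.6, Irx5 at 14.7 and 4.72, and Meis2 at 9.35 and 3.54 CPM. These barcodes averaged 39.0 and 28.5 UMIs, and a like amount in every cell would make up 0.479% of a member's UMIs or less. The chosen window of 10 to 100 UMIs bounds that amount, so it sets no limit on the free RNA in cells. Cells with at least 10 UMIs of 7 extraembryonic endoderm markers, taken as a background for the shares, numbered only 14 and 13, with a median of 11722 and 8346 UMIs. Irx3 was found in 0 of them in either library, which allows a share of up to 23.2% and 24.7%, so they set no useful limit. Meis2 was found in 3 of them in each library, and the other genes in 0 to 2.

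Otx2 and the other 4 genes were seen together in fewer cells than their own shares give. Deep cells show more of every gene, so cells were sorted into 20 bins of like UMI total, and the co-detection ratio is the number of cells with both genes over the number that the 2 shares within each bin give. A ratio of 1 means that the genes appear together as often as their shares alone would put them together. Over all 10884 genes with a UMI in at least 2% of cells of both libraries, the median ratio with Otx2 was 1.00 in each library.

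Otx2 and Gbx2 were both found in 246 cells of the WT-labelled library where the shares give 387, a ratio of 0.64 (0.56 to 0.72). Otx2 and Meis2 were both found in 79 of its cells where the shares give 166, a ratio of 0.48 (0.38 to 0.59). The ratio with Irx3 was 0.73 (0.64 to 0.83; 237 cells) and with Irx5 0.72 (0.62 to 0.82; 220 cells). All 4 ratios were at or under 0.8, as for 1.07% of the 10884 genes. Only 1 gene had a lower ratio than Meis2, 9 had a lower one than Gbx2, 24 than Irx5 and 32 than Irx3. The members were chosen with earlier results known, so nothing is read from these places or from those given below.

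The ratios with Otx2 in the dKO-labelled library were 0.73 (0.65 to 0.81; 331 cells against 455) for Gbx2, 0.68 (0.55 to 0.84; 92 against 135) for Meis2, 0.85 (0.74 to 0.98) for Irx3 and 0.88 (0.76 to 1.02) for Irx5. Gbx2 and Meis2 were under 0.8, as for 0.193% of genes, while Irx3 and Irx5 were not and the Irx5 interval reached 1. Genes with a lower ratio numbered 4 for Gbx2, 1 for Meis2, 82 for Irx3 and 177 for Irx5. For cells with Irx3 or Irx5 the ratio was 0.88 (0.79 to 0.97), but 1.06 (0.79 to 1.39; 51 cells with both) when cells were thinned to 2500 UMIs instead of sorted into bins. Over all UMIs each of the 4 ratios was nearer to 1 than in the other library. With 1 library per label that difference was not tested.

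The other 4 genes were found together more often than their shares give, in all 6 pairs and both libraries. Irx3 and Irx5 were both found in 463 cells of the WT-labelled library where the shares give 213, a ratio of 2.18 (1.98 to 2.39), and in 129 cells of the dKO-labelled library where the shares give 43.1, a ratio of 3.00 (2.50 to 3.56). With Irx3, no gene of the 10884 had a higher ratio than Irx5 in either library. Ratios of 1.2 or more with Irx3 were held by 2.88% and 7.67% of genes.

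Gbx2 and Meis2 had a ratio of 2.51 (2.26 to 2.79; 349 cells) in the WT-labelled library and 2.82 (2.37 to 3.32; 141 cells) in the dKO-labelled library. Ratios of 1.2 or more with Gbx2 were held by 2.77% and 4.81% of genes. Gbx2 had a ratio of 1.76 and 2.19 with Irx3 and of 1.63 and 1.81 with Irx5. Meis2 had a ratio of 2.15 and 2.75 with Irx3 and of 1.94 and 2.50 with Irx5, and ratios of 1.2 or more with Meis2 were held by 6.87% and 11.6% of genes. The 4 genes on the far side from Otx2 thus marked overlapping cells, while Otx2 marked cells that held less of them. Pairs among those 4 genes were not recomputed with doublets removed or under the other alternatives, which were run for pairs with Otx2 only.

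**Figure D2:**
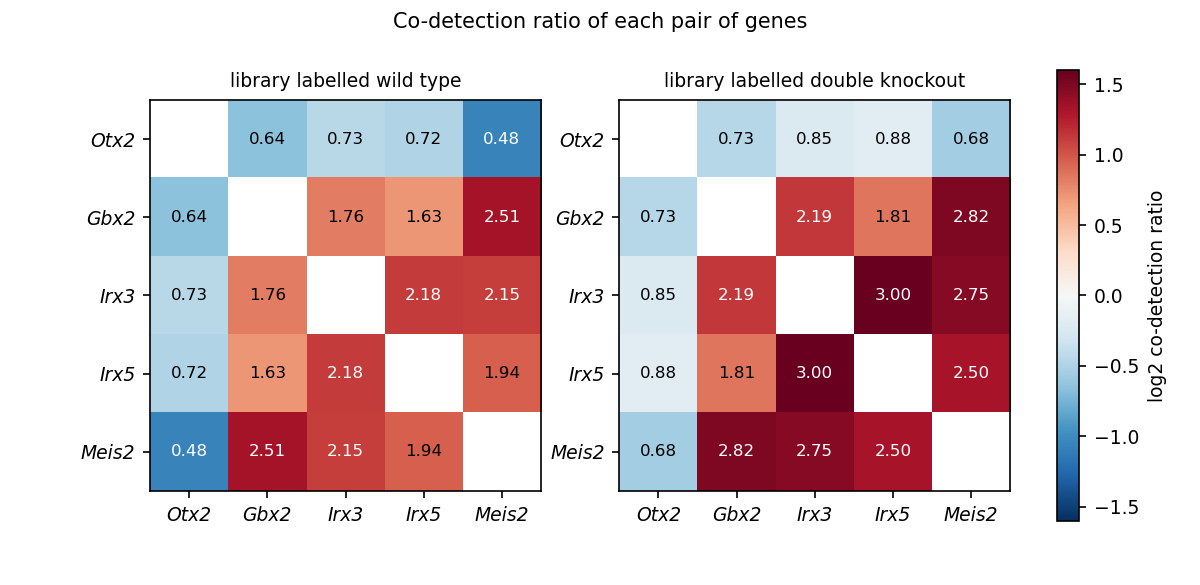
Co-detection ratio of every pair of the 5 genes, 1 panel per library, coloured by its log2 with blue under 1 and red over 1. The Otx2 row is blue throughout, from 0.48 with Meis2 in the WT-labelled library to 0.88 with Irx5 in the dKO-labelled library, and all other pairs are red.

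The exclusion was partial. Thinned to 2500 UMIs, 536 cells (6.16%) of the WT-labelled library held Otx2 and none of the other 4, 1201 (13.8%) held at least 1 of the other 4 and no Otx2, 52 held both and 6918 held neither. The product of the 2 shares gives 84.6 cells with both. Of the dKO-labelled library 1179 cells (11.1%) held Otx2 only and 775 (7.32%) held the others only. In it 87 cells held both where the product gives 103, and 8546 held neither. Those 87 cells were 0.822% of cells (0.659 to 1.01), an interval that holds the product, so they show no shortfall beyond counting error. Thinned to 5000 UMIs, 228 cells of that library held both where the product gives 323. Cells with Otx2 only were thus the smaller of the 2 exclusive sets in the first library and the larger in the second. At 2500 UMIs a cell with neither may still have made the transcripts.

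Levels in the cells showed the same pattern as shares. Meis2 in the WT-labelled library stood at 4.19 CPM in cells with an Otx2 UMI and at 12.7 CPM in cells without, 3.03-fold higher. Gbx2 stood at 14.0 and 27.5 CPM, Irx3 at 13.3 and 21.9 CPM and Irx5 at 12.2 and 19.1 CPM. Gbx2 in the dKO-labelled library stood at 11.4 and 21.8 CPM, a 1.91-fold gap beside 1.96-fold in the other library. There Meis2 stood at 3.11 and 5.90 CPM, Irx3 at 6.66 and 9.04 CPM, and Irx5 at 6.19 and 8.25 CPM. Cells with an Otx2 UMI had a median of 11619 UMIs in the WT-labelled library against 10300 in cells without.

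The Otx2 level was lower the more of the 4 genes a cell held, up to 3 of them. It was 37.4 CPM in the 5406 cells of the WT-labelled library with none of the 4, 24.998 in the 2086 cells with 1, 19.6 in the 856 cells with 2, 9.92 (6.98 to 13.7) in the 286 cells with 3 and 13.4 (7.30 to 22.4) in the 73 cells with all 4. The dKO-labelled library gave 60.3 CPM in 8235 cells, 47.0 in 1843, 40.0 in 410, 28.3 (18.8 to 40.9) in 88 and 15.3 (1.85 to 55.2) in 11. The last step in each library rests on few UMIs, 14 and 2.

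Fgf5 (a growth factor gene of the formative epiblast) ran the same way as Otx2, from 75.8 CPM in cells with none of the 4 genes to 19.6 CPM with 3 and 7.63 CPM with all 4 in the WT-labelled library. Eomes, a T-box factor of the early streak, went from 109 to 29.8 and 21.0 CPM and T, the Brachyury gene of the streak, from 45.1 to 13.1 and 8.59 CPM. Sox2, a factor of pluripotent and neural cells, went the other way, from 24.5 to 66.7 CPM with 3 and 61.1 CPM with all 4. Fgf5 in the dKO-labelled library went from 99.0 CPM with none to 23.2 with 3, Eomes from 199 to 75.8, T from 55.9 to 18.2, and Sox2 from 21.1 to 58.6 CPM. In its 11 cells with all 4 genes Fgf5 stood at 15.3, Eomes at 68.8, T at 22.9 and Sox2 at 30.6 CPM (8.33 to 78.2), from 2 to 9 UMIs each, so Sox2 was lower and T higher there than with 3 genes.

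**Figure D3:**
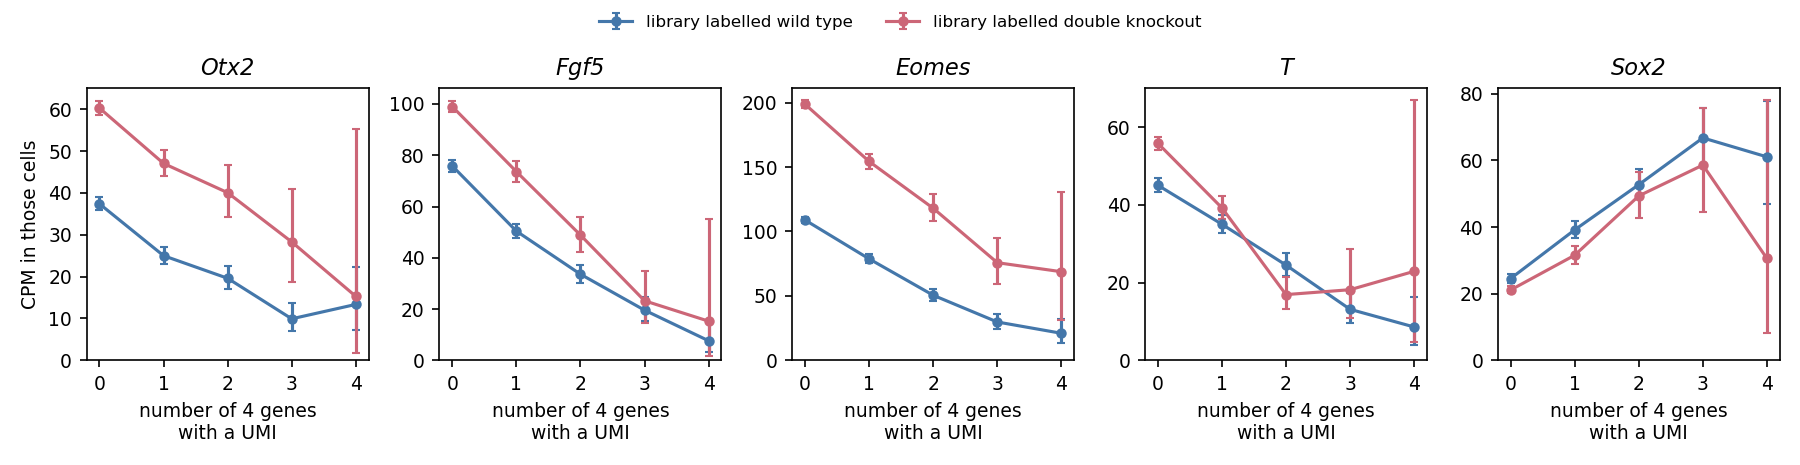
Level in CPM (y axis, own scale for each gene) of Otx2, Fgf5, Eomes, T and Sox2 in cells sorted by how many of Gbx2, Irx3, Irx5 and Meis2 had a UMI (x axis), with exact Poisson 95% intervals. Otx2 goes from 37.4 to 9.92 CPM between 0 and 3 genes in the WT-labelled library and from 60.3 to 28.3 CPM in the dKO-labelled library, while Sox2 goes up over the same range. The last point of the dKO-labelled library rests on 11 cells.

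From 0 to 2 UMIs, the number of UMIs of a gene gave the same order. Cells of the WT-labelled library with 0, 1 and 2 Otx2 UMIs held Gbx2 at 27.5, 17.0 and 8.55 CPM, and those of the dKO-labelled library at 21.8, 13.4 and 8.61 CPM. Beyond 2 there was no steady order: cells with 3 and with 4 or more Otx2 UMIs held Gbx2 at 11.7 and 7.14 CPM in the first library and at 7.72 and 9.82 CPM in the second, from 11 to 26 UMIs each. Sorted the other way, cells with 0, 1 and 2 UMIs of Irx3 and Irx5 summed held Otx2 at 34.1, 25.02 and 24.3 CPM in the WT-labelled library and at 57.7, 50.2 and 42.3 CPM in the dKO-labelled library. Between 1 and 2 such UMIs the Otx2 intervals overlapped in both libraries, so that step is within counting error. They were 22.6 to 27.6 and 20.2 to 28.9 CPM in the first, and 45.7 to 55.0 and 32.9 to 53.4 CPM in the second. With 3 and with 4 or more such UMIs, Otx2 stood at 11.2 and 17.4 CPM and at 40.04 and 48.998 CPM, from 16 to 39 UMIs each. The cells with 0, 1 and 2 of them held Gbx2 at 17.7, 37.2 and 42.0 CPM and at 15.4, 31.0 and 56.1 CPM.

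Of the markers, Eomes, Fgf5, T and Zfp42 had ratios over 1 with Otx2 and under 1 with Irx3 in both libraries. With Otx2, the ratio for Eomes was 1.36 (1.29 to 1.44) and 1.14 (1.10 to 1.19), for Fgf5 1.41 and 1.19, for Foxa2 (a forkhead factor of the anterior streak and endoderm) 1.42 and 1.57, for T 1.201 and 1.16, and for Zfp42 (a naive pluripotency marker) 1.14 and 1.11. Sox2 was at 0.87 (0.79 to 0.95) and 0.96 (0.89 to 1.05), and the second of these intervals holds 1. With Irx3, the order was turned over: 0.68 and 0.73 for Eomes, 0.60 and 0.64 for Fgf5, 0.63 and 0.58 for T, and 0.66 and 0.67 for Zfp42. Sox2 was at 1.51 (1.38 to 1.65) and 1.604 (1.38 to 1.85) with Irx3. Foxa2 with Irx3 in the WT-labelled library was at 0.66 (0.38 to 1.06; 17 cells), an interval that holds 1.

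The caudal factor Cdx2 had ratios over 1 with Gbx2 and Meis2 and under 1 with Irx3 and Irx5, although in the dKO-labelled library all these intervals but that of Gbx2 held 1. Its ratio was 1.28 (1.10 to 1.48) and 1.26 (1.01 to 1.56) with Gbx2 and 1.28 (1.01 to 1.59) and 1.32 (0.87 to 1.91) with Meis2. It was 0.73 (0.58 to 0.90) and 0.90 (0.61 to 1.28) with Irx3 and 0.77 (0.62 to 0.95) and 0.69 (0.44 to 1.03) with Irx5, and 1.08 and 1.02 with Otx2. Sp5 gave ratios between 0.96 and 1.06 with all 5 genes in both libraries. The stress gene Ddit3 gave 0.95 and 1.07 with Otx2, 1.07 and 1.03 with Irx3, and 0.98 and 1.41 (0.96 to 2.00) with Meis2.

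Among 10252 genes (predicted, ribosomal and mitochondrial genes left out), the 8 most often found with Otx2 by the lower of the 2 libraries were Lncenc1, Ubash3a, Gsc, Pla2g10, Mixl1, Fgf15, Adamts9 and Pcdh8, from 1.40 and 1.34 for the long noncoding RNA Lncenc1 to 1.35 and 1.27 for the protocadherin gene Pcdh8. Gsc, a homeobox gene of the anterior streak, had the highest ratio of these 8 in the WT-labelled library, 1.58, and 1.30 in the other. It stood at 10.5 CPM in the WT-labelled library and 23.9 CPM in the dKO-labelled library. Mixl1, a homeobox gene of the streak, had ratios of 1.48 and 1.29.

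The 8 least often found with Otx2 were Sox1, Meis2, Ntn1, Gbx2, Efnb1, Rgma, Egr3 and Cldn5. Sox1, an early neural factor, was the only gene under Meis2, at 0.41 and 0.62. The netrin gene Ntn1 was at 0.51 and 0.72, the ephrin gene Efnb1 at 0.53 and 0.74, and Rgma, a BMP co-receptor gene, at 0.63 and 0.76. All 8 stood lower in the dKO-labelled library, by log2 ratios from -0.37 for Cldn5 to -1.12 for Meis2. Gbx2 and Meis2 are members that were chosen with their ratios known. The share of all genes that stood lower was not counted, and the median over 12406 genes of at least 1 CPM was -0.03. Of the 8 most often found with Otx2, Fgf15 stood lower at -0.11 and the interval of Lncenc1 held 0 (-0.03 to 0.33). The rest of those stood higher. In both libraries 0.101% of the 10884 genes were at or under 0.8 with Otx2, a count of 11.

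**Figure D4:**
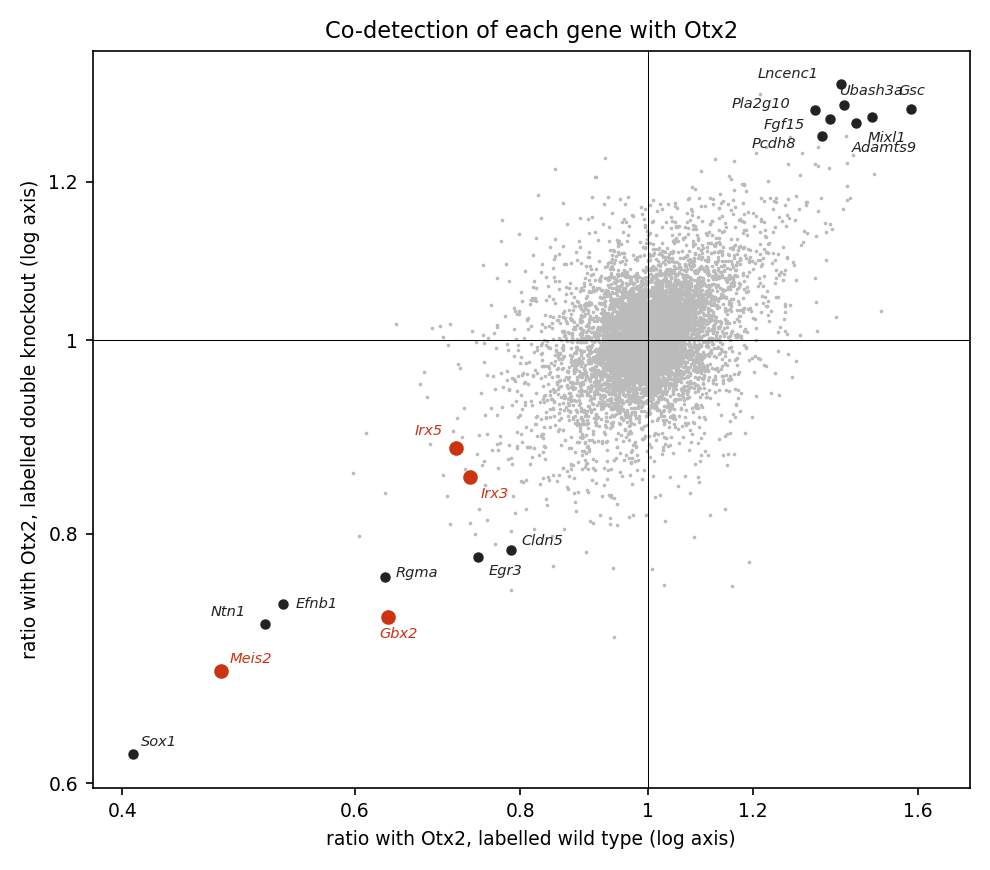
Co-detection ratio with Otx2 of each of the other genes, WT-labelled library on the x axis and dKO-labelled library on the y axis, both on log axes, 1 point per gene. Gbx2 and Meis2 lie at the lower left beside Sox1, Ntn1 and Efnb1, Irx3 and Irx5 lie nearer to the main cloud, and Gsc and Mixl1 lie at the upper right.

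The lists for cells that held Irx3 or Irx5 shared part of these genes, on the opposite side. The most often found were Meis2 (1.88 and 2.47), Sox1 (1.83 and 3.01), Greb1l, the FGF receptor gene Fgfr2 (1.80 and 2.23), Wnt5a, Gbx2 (1.62 and 1.91), Efnb1 and Ntn1. Of these 8, Meis2, Sox1, Gbx2, Efnb1 and Ntn1 were also among the 8 least often found with Otx2. The least often found were the Nodal co-receptor gene Tdgf1 (0.50 and 0.51), Mab21l2, Mixl1 (0.60 and 0.41), Pla2g10, the homeobox gene Evx1 (0.63 and 0.58), Fgf8 (0.59 and 0.64), Grm6 and Cntn2. Mixl1 and Pla2g10 were among the 8 most often found with Otx2. Meis2 and Gbx2 are members chosen with earlier results known, and all these lists come from the same cells. Nothing is therefore read from the genes they share.

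The library difference of each gene varied between classes of cells, which were chosen after the data had been seen. In cells with no Otx2 UMI, the log2 ratio between libraries was -0.33 for Gbx2, -1.28 for Irx3, -1.21 for Irx5 and -1.11 for Meis2. In cells with an Otx2 UMI it was -0.30 for Gbx2, -1.003 for Irx3, -0.98 for Irx5 and -0.43 (-0.83 to -0.03) for Meis2, the last beside -1.12 over all cells. In cells with no Irx3 or Irx5 UMI, Otx2 stood at 34.1 and 57.7 CPM, a log2 ratio of 0.76 (0.69 to 0.83), and Gbx2 gave -0.20 (-0.32 to -0.09). In cells that did hold Irx3 or Irx5, Otx2 stood at 22.9 and 48.6 CPM, a log2 ratio of 1.08 (0.91 to 1.25), with Gbx2 at -0.15 (-0.32 to 0.01), an interval that holds 0, and those cells made up 24.97% of the WT-labelled library and 11.03% of the dKO-labelled library.

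Cells with a T UMI held more Otx2 and less of the other 4 in both libraries. Otx2 stood at 38.4 and 67.3 CPM in them and at 28.0 and 51.2 CPM in cells with no T UMI. Irx3 stood at 10.8 and 4.07 CPM against 23.6 and 10.2 CPM, and Gbx2 at 16.7 and 11.1 CPM against 27.3 and 21.5 CPM. The log2 ratio between libraries in T-positive cells was 0.81 for Otx2, -0.59 for Gbx2, -1.41 for Irx3, -1.16 for Irx5 and -1.13 for Meis2.

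The ratio of Otx2 with Gbx2 was nearer to 1 in T-positive cells of the WT-labelled library. There it was 0.91 (0.74 to 1.10), and in cells with no T UMI it was 0.54 (0.45 to 0.63). The dKO-labelled library gave 0.797 (0.66 to 0.96) in cells with a T UMI and 0.71 (0.62 to 0.82) in the others. Of Irx3 or Irx5 and Otx2 in T-positive cells, the ratio was 0.85 (0.70 to 1.03) in the WT-labelled library and 1.01 (0.83 to 1.23) in the dKO-labelled library, where it was 0.88 over all cells. Whether T-positive cells differ from the rest was not tested.

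Some cells held a low share of UMIs on chromosome 6 or on chromosome 11, at or under 0.8 times the median cell, and these cells differed between the libraries in number and in the members. Cells low on chromosome 11 made up 17.7% and 5.82% of cells, and held Irx3 at 9.49 and 2.69 CPM against 21.6 and 8.46 CPM in the others. Meis2 was higher in them, at 19.2 and 12.6 CPM against 9.02 and 4.47 CPM. Cells low on chromosome 6 made up 21.1% and 18.2% of cells. In them Irx3 stood at 14.7 and 11.2 CPM, a log2 ratio of -0.39 (-0.66 to -0.12), against 21.0 and 7.54 CPM and a ratio of -1.48 (-1.61 to -1.34) in the others. The Irx5 ratio was -0.60 in them and -1.36 in the others, while Otx2 gave 1.09 and 0.81. Otx2, Gbx2, Irx3, Irx5 and Meis2 lie on other chromosomes, and the part of these cells in the library differences was not tested beyond these values.

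**Figure D5:**
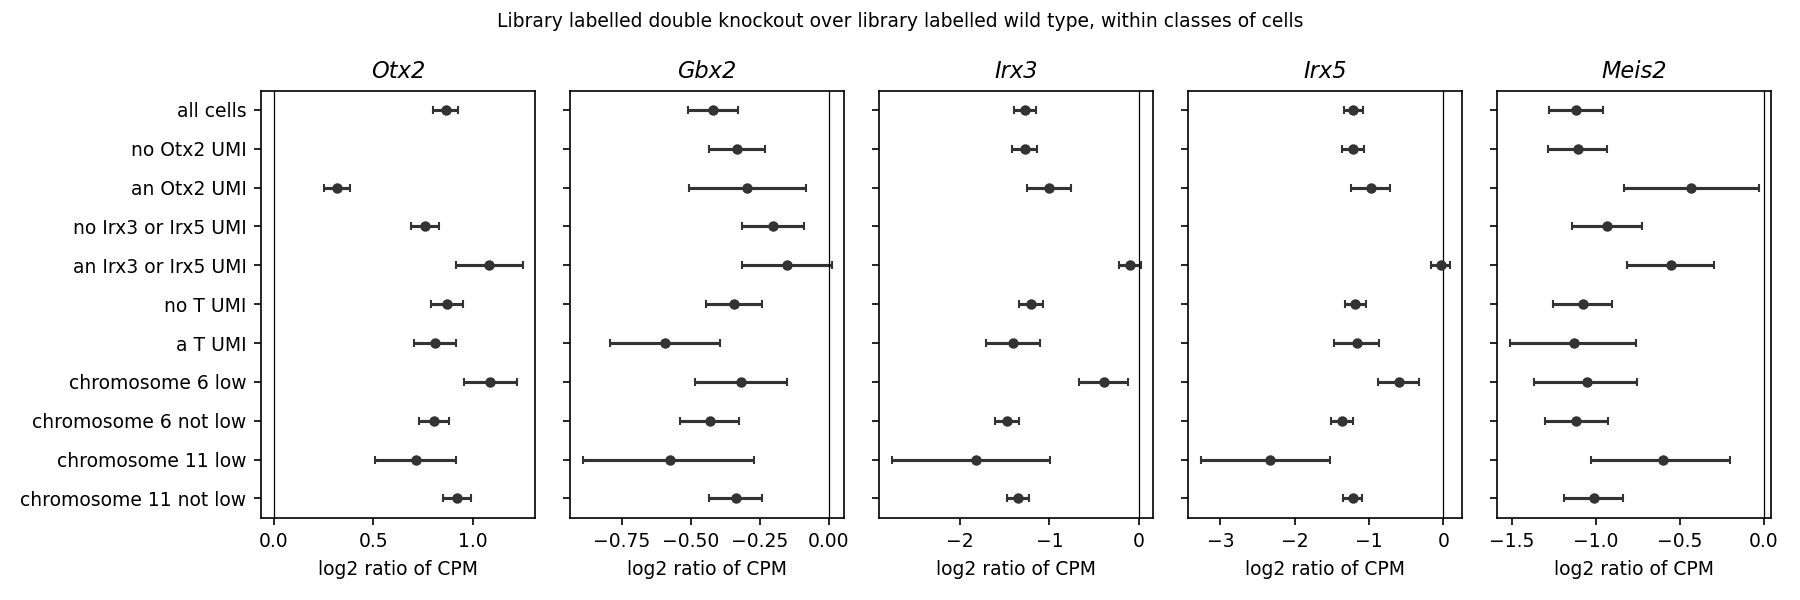
Log2 ratio of CPM, dKO-labelled library over WT-labelled library, for each of the 5 genes in all cells and within classes of cells, with exact 95% intervals of counting error and its own x axis for each gene. A class defined by a gene shows no point for that gene where it holds no UMI, and Otx2 in cells with an Otx2 UMI, and Irx3 and Irx5 in cells with an Irx3 or Irx5 UMI, are fixed in part by that choice. Otx2 lies to the right of 0 in the classes not defined by Otx2, Gbx2 has an interval that holds 0 in cells with an Irx3 or Irx5 UMI, and the Irx3 ratio is -0.39 in cells low on chromosome 6.

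Genes of 1 CPM or more beside the members gave library ratios near 0. Among genes of 1 CPM or more within 500 kb of Irx3, Fto stood at 40.6 and 42.0 CPM with a log2 ratio of 0.05 and Rpgrip1l at -0.13. Within 500 kb of Irx5, Mmp2 was at 0.18 and Lpcat2 at -0.10. Beside Otx2 the ratios lay between -0.16 for Peli2 and -0.06 for Naa30. Agap1 beside Gbx2 was at -0.10, and BC052040 beside Meis2 at -0.02. Under 1 CPM, Irx3os, which overlaps Irx3, was at -1.70 (-2.58 to -0.89) from 55 and 17 UMIs. Crnde beside Irx5 was at -0.40 (-0.90 to 0.08), and Otx2os1 at -0.01 (-1.75 to 1.73).

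The listed relatives of Irx3, Irx5 and Meis2 that reached 10 CPM differed by less than 1.5-fold. In the list of other Iroquois genes, Irx2 was the only one of 5 at 10 CPM or more, at 27.6 and 23.2 CPM and a log2 ratio of -0.25 (-0.33 to -0.17). Of 10 Meis and Pbx partner genes, 7 reached 10 CPM and 0 of them differed by 1.5-fold, with a median log2 ratio of -0.01 beside -0.02 over all 7607 genes. Pbx3, which encodes a partner of Meis proteins, was at -0.18 and Tgif1 at 0.15.

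Of 13 anterior genes 3 reached 10 CPM: Gsc was past 1.5-fold at 1.18 (1.07 to 1.29), while the Wnt inhibitor gene Sfrp1 was at -0.38 and the Nodal inhibitor gene Lefty1 at -0.13. Of 12 midbrain-hindbrain boundary genes Fgf8 and Spry2 reached 10 CPM, at 0.73 and 0.34, and Wnt1 had no UMI in either library. Of 12 formative epiblast genes 11 reached 10 CPM, 0 were higher and 1, the SoxB1 gene Sox3, was lower, at -0.76. Fgf5 was at 0.56. Of 11 posterior genes Evx1 and Nkx1-2 reached 10 CPM, at -0.22 and -0.17, and neither was past 1.5-fold. Of 7 neural genes only Nes, an intermediate filament gene, reached 10 CPM, at 0.03. Sox1 is also on that list, under 10 CPM, and stood lower in the dKO-labelled library. It was at 5.23 and 3.08 CPM, a log2 ratio of -0.76 (-0.97 to -0.55). The 7 genes summed to 42.1 and 38.8 CPM, and the others are not reported here singly.

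The 7 extraembryonic endoderm genes summed to 12.4 and 11.6 CPM. The 3 pluripotency genes summed to 806 and 832 CPM, and the 8 streak genes to 533 and 682 CPM, where Eomes was past 1.5-fold at 1.03. The 5 stress genes summed to 41.9 and 60.7 CPM, and both that reached 10 CPM were past 1.5-fold higher, Chac1 at 0.77 and Trib3 at 0.63. Their part in the members' differences was not tested, while Ddit3 itself stood at 5.78 and 6.37 CPM. Where most positive cells hold 1 UMI, fewer cells with a gene and less of its RNA per cell cannot be told apart.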

How the data were processed

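Single-cell 3′ libraries were made with the 10x Genomics kit from 2 pooled sets of gastruloids, per the labels. What the authors deposited are raw counts of UMIs for each gene in each barcode. Cell Ranger 8.0.1 is named in the labels' protocols, and STAR 2.7.9a, STARsolo and Seurat 5.1.0 in the submitters' processing notes. The genome build is not given in the sources used here, and coordinates are those of GENCODE M21 on GRCm38, matched by gene ID.

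Cells were called here as stated, on all barcodes of libraries of 104083993 and 103187025 UMIs, of which 97157331 and 97644169 were in cells. Of barcodes over the UMI limit, 1 and 0 had too few genes, and 64 and 26 too high a mitochondrial share. Doublets were kept in the values and removed in an alternative. Levels are UMI sums as CPM, with exact Poisson intervals, a pseudocount of 0.5 in ratios over all genes, exact conditional intervals for ratios and Clopper-Pearson intervals for shares. With 1 library per group there is no test. Thinning drew UMIs without replacement. The calculations were tested on simulated data. Python 3.11.15, numpy 2.4.6 and scipy 1.17.1 were used, and edgeR 4.0.16 only for TMM factors.

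The members, gene lists and tests were chosen with earlier results of these data known. The genes named are the members, Sp5 and Sp8, 9 marker genes, up to 3 genes of at least 10 CPM with the largest difference in each list, the 8 most and 8 least often found with Otx2 and with Irx3 or Irx5, and genes within 500 kb of a member. Some genes that this rule names are not reported here.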

Additional observations from a re-analysis of the deposited data

How the results depend on the processing

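No paired analysis was possible because each group has 1 library. Of 40 library log2 ratios under the alternatives, 37 moved by less than their counting interval and none changed sign. Irx3 was -1.48 and Irx5 -1.35 without cells low on chromosome 6 or 11, and Irx3 was -1.15 in thinned sums. TMM scaling shifted all ratios by 0.03.

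Of 110 co-detection values with Otx2, 87 stayed within their interval. For Irx3 or Irx5 in the dKO-labelled library, the ratio passed 1, at 1.06 in cells thinned to 2500 UMIs and 1.01 in cells with a T UMI. In the WT-labelled library, thinning to 2500 UMIs gave 0.54 for Gbx2, 0.55 for Irx3, 0.29 for Meis2 and 0.64 for Irx3 or Irx5, and thinning to 5000 UMIs gave 0.30 for Meis2 and 0.67 for Irx3 or Irx5. Without the deepest 10% of cells Gbx2 was 0.55. With at least 2 Otx2 UMIs Gbx2 was 0.44 and Irx3 0.64. Without a T UMI Gbx2 was 0.54, and with one Gbx2 was 0.91, Irx5 0.87, Meis2 0.79 and Irx3 or Irx5 0.85. In the dKO-labelled library, thinning to 2500 UMIs gave 0.99 for Irx3 and 1.12 for Irx5, thinning to 5000 gave 0.63 for Gbx2, 0.51 for Meis2 and 0.78 for Irx3 or Irx5, at least 2 Otx2 UMIs gave 0.59 for Gbx2, and a T UMI gave 0.99 for Irx3. The cause was not tested, and counts with both genes after thinning to 2500 UMIs were as low as 4.

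Shares of cells thinned to 5000 UMIs were 12.5% and 21.4% for Otx2, 10.7% and 7.93% for Gbx2, 8.59% and 3.94% for Irx3, 8.06% and 3.58% for Irx5 and 4.56% and 2.29% for Meis2. Unthinned they were 22.1% and 32.7%, 18.4% and 12.2%, 15.5% and 6.21%, 14.8% and 6.05%, and 8.12% and 3.61%. Genes past 1.5-fold numbered 64 higher and 109 lower at 1 CPM or more, 2525 and 2784 with no filter, and 206 and 303 at 1.2-fold. Of 56 list counts and medians under the alternatives, 28 changed, most of them with a lower level limit.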
